A study of Mus musculus with 48 samples.

Results

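The comparison described here sets pancreatic islet cells taken at lights on (zeitgeber time 0, ZT0) against islet cells taken at lights off (ZT12). It holds the 16 of 48 libraries whose titles name these times: 8 at ZT0 and 8 at ZT12, with 2 libraries at each time for β cells of doxycycline mice (DOX), β cells of control mice (CTR), α cells of DOX mice and α cells of CTR mice. All the animals were male mice aged 6 to 8 weeks that carried the reporters RIP-Cherry for β cells and ProGcg-Venus for α cells, the toxin transgenes Insulin-rtTA and TET-DTA, and the clock reporter PER2::Luc, a luciferase fusion, and DOX and CTR animals shared all of these. DOX mice drank 300 mg of doxycycline in water with 2% sucrose, which turns on diphtheria toxin A in cells that use the insulin promoter, and CTR mice drank water with 2% sucrose. The light cycle had 12 h of light and 12 h of darkness, and food was restricted to the night, beginning 10 days ahead of the experiment. No group received the drug without the toxin transgenes, so drug and ablation cannot be told apart in any DOX value. α cells were sorted by Venus and β cells by Cherry, so each library is a sorted population, in which fewer expressing cells and less RNA per cell cannot be told apart. Whether the 2 libraries of a group are from different animals is not stated, and the p-values measure only how far libraries spread. Nor do the labels say whether the β and α libraries of a group with the same number share animals. Their differences between replicates went together (correlations of 0.23 to 0.40 in the 4 groups), while the main fit treats the libraries as independent, so limma-voom with that correlation was run beside it.

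The clock of mammalian cells is a transcriptional loop. A dimer of BMAL1 (gene Arntl) with CLOCK or NPAS2 activates genes through E-box sequences, among them the Period and Cryptochrome genes, whose proteins return to inhibit the dimer, and the REV-ERB genes Nr1d1 and Nr1d2, whose proteins repress Arntl and compete with the activating ROR receptors. Output factors of the PAR bZIP family (DBP, TEF and HLF) act on D-box sequences against the repressor NFIL3, and islet cells carry such a clock, known for its link to the daily course of insulin and glucagon release.

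Total estimated counts per library, in M (megacounts), were 37.4 to 69.3 M at ZT0. At ZT12 they were 51.4 to 62.6 M in the 4 libraries of the later sequencing run and 18.7 to 24.9 M in the 4 of the earlier run. All 8 ZT0 libraries are of the later run. The fold changes below come from a fit with a term for the run, so they rest on the 8 ZT0 libraries and the 4 later ZT12 libraries, and the 4 earlier ones inform the level of each condition and the spread. Within the later run the last number of the titles is 5 or 6 at ZT0 and 7 at ZT12, and time and whatever that number stands for cannot be told apart. Part of the animals had been kept on inverted light and feeding cycles for 2 weeks, and the labels do not say which libraries they gave. The sorts matched their labels, with Gcg at 41.8 to 253 CPM (counts per megacount of the library, after scaling) in β cells and 221650 to 357130 CPM in α cells, and Mafa, a β-cell factor, at 65.4 to 374 CPM in β cells and at most 0.377 CPM in α cells. Markers of acinar cells, the enzyme-making cells around the islets, summed to 7.99, 110 and 4750 CPM (lowest, median and highest) at ZT0, against 3.95, 24.8 and 265 CPM at ZT12. The highest sums were in ZT0 DOX α replicate 1 and, at 1257 CPM, in ZT0 DOX β replicate 1. Their part in the results below was not tested beyond leaving out each library in turn.

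Genes of the clock loop differed between lights on and lights off in both directions. Of 21 clock genes tested, 5 were higher at ZT0 (among them Npas2, Arntl, Nfil3 and Cry1) and 5 were lower (Nr1d2, Per3, Dbp, Tef and Cry2), with log2 fold changes, ZT0 over ZT12, from 4.79 to -2.29. Over all genes, 98 of 16937 passed (0.579%; edgeR quasi-likelihood test, Benjamini-Hochberg adjusted p under 0.05), 30 higher (0.177%) and 68 lower (0.401%), and 39 of them differed at least 2-fold. The median log2 fold change of all genes was 0.02. The number of genes called moved with the setting. It was 64 in the later run alone, 56 with replicate number and run both as terms, 450 with no term for the run, 1130 when all 48 libraries shared the fit, 562 by DESeq2 and 102 by limma-voom. Of the 21 clock genes DESeq2 called 13, the fit of all 48 libraries 15 and limma-voom 9. It lay between 24 and 142 when 1 library was left out. It came to 47 without ZT0 CTR α replicate 1, 41 without ZT0 CTR β replicate 1, 39 without ZT0 CTR β replicate 2 and 58 without ZT0 DOX α replicate 2. Without a later ZT12 library it was 24 (DOX α), 27 (DOX β), 30 (CTR α) or 30 (CTR β).

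Of the 98 called genes, 49 were called in the later run alone, which shares nearly all of the contrast with the main fit, and 93 with all 48 libraries. A core of 18 genes was called with any 1 library left out and in the later run alone. In it, Npas2, Arntl, Nfil3, Ppp1r3c, Fam84a and Lpl were higher at ZT0, and Nr1d2, Per3, Dbp, Tef, Pim3, Arl4d, Sox4, Cry2, Fkbp5, Wee1, Cnn3 and Cnot8 were lower.

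**Figure D1:**
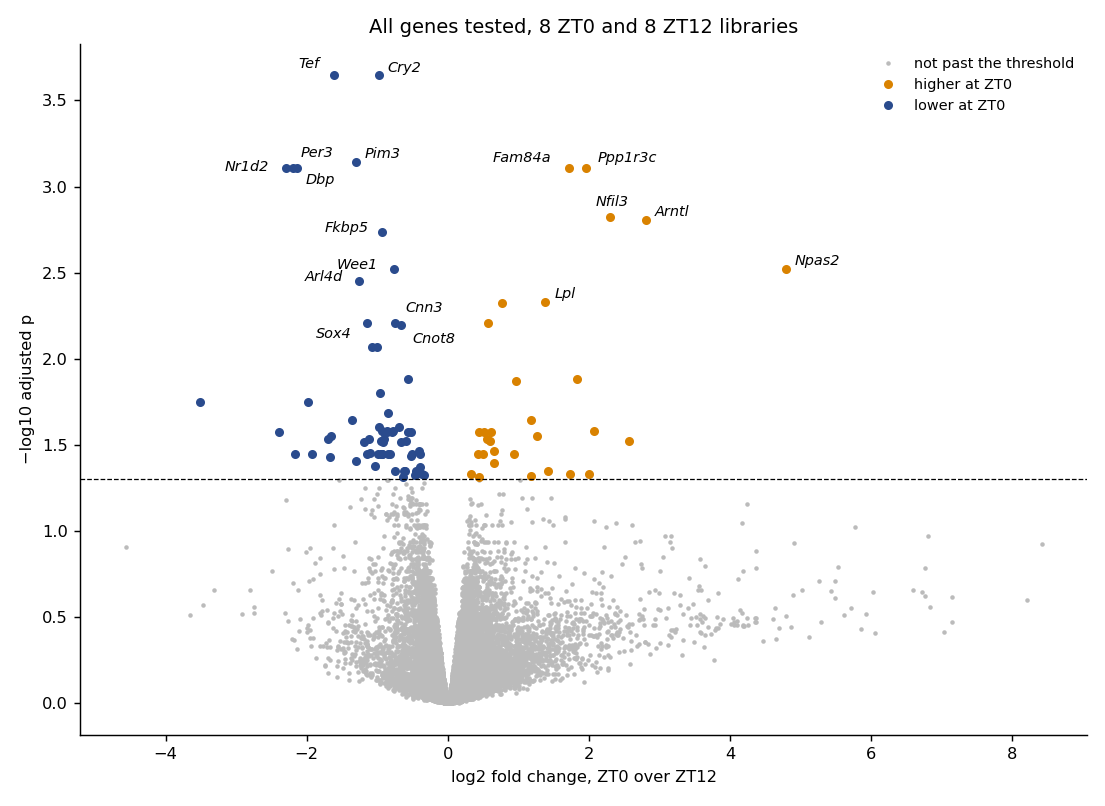
All 16937 genes tested over 8 ZT0 and 8 ZT12 libraries, with the log2 fold change (ZT0 over ZT12) on the horizontal axis and −log10 of the edgeR adjusted p on the vertical axis; the dashed line is an adjusted p of 0.05. The 30 genes called higher at ZT0 are orange, the 68 called lower are blue, and the 18 named genes were called with any 1 library left out and in the later run alone.

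Promoters of clock genes carry short motifs through which the loop acts, and those of called clock genes that hold one are shown to set the motif beside the direction of the gene. RefSeq sequences on GRCm38.p6 were searched in the 250 bases before each start site, on both strands, for the E-box CACGTG, the D-box TTATGNAA or TTACGNAA, the element bound by ROR and REV-ERB proteins (TAGGTCA or TGGGTCA) and the cyclic AMP response element TGACGTCA. Per3 (chr4:151044666-151044915, minus strand), lower at ZT0, holds 2 D-boxes that begin 205 and 158 bases before the start. Cry1 (chr10:85185055-85185304, minus strand), higher at ZT0, holds an E-box 60 bases before it. Nfil3 (chr13:52981040-52981289, minus strand), higher at ZT0, holds a ROR and REV-ERB element on the reverse strand, TGACCTA, 12 bases before it. Tef, lower at ZT0, has 2 windows, each with an E-box, 127 bases before the start in the first (chr15:81802423-81802672, plus strand) and 138 in the second (chr15:81811164-81811413, plus strand). Each sequence is printed 5′ to 3′ in the direction of the gene, with the motif in capitals.
Per3: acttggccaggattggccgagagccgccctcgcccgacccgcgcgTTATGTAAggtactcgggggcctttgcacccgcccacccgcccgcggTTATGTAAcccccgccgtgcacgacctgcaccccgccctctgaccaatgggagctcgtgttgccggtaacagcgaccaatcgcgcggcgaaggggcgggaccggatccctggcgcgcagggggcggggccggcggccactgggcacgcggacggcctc
Cry1: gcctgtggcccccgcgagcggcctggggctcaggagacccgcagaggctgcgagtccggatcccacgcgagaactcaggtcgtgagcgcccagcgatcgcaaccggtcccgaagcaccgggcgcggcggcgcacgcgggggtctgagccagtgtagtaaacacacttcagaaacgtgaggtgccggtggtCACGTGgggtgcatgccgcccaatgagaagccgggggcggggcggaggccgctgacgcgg
Nfil3: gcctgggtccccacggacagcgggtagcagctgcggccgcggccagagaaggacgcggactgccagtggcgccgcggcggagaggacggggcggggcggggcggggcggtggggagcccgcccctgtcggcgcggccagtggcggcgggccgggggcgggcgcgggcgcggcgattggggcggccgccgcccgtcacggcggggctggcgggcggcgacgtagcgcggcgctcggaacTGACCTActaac
Tef, first window: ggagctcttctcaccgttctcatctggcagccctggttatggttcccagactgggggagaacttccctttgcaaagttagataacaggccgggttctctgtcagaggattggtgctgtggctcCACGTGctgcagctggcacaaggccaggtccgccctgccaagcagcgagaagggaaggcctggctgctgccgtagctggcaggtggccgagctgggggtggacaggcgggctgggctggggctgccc
Tef, second window: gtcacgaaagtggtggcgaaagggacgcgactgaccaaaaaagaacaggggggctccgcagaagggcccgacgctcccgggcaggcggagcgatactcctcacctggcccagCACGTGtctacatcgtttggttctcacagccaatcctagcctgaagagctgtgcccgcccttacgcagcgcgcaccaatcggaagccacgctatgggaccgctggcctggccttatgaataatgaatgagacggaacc
None of the motifs was found in the windows of Npas2, Arntl, Cry2, Nr1d2 and Dbp. Of the 12010 tested genes matched to a promoter, 9.32% held an E-box, 3.16% a D-box, 5.31% a ROR and REV-ERB element and 3.01% a cyclic AMP response element. An E-box was in 7 of the 49 matched genes that were lower at ZT0 and in 4 of the 19 matched genes that were higher. A match of letters describes the sequence and does not show that a factor binds there.

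Among the activators of the loop, Arntl and Npas2 were higher at lights on. Of 7 activators and ROR receptors tested, 3 were higher at ZT0 and 0 were lower. Arntl (ENSMUSG00000055116.8, chr7:113207465-113314126 on GRCm38), which encodes BMAL1, had 18.6 and 29.6 CPM in DOX β cells, 36.8 and 25.1 in CTR β cells, 17.3 and 25.6 in DOX α cells and 25.3 and 16.5 in CTR α cells at ZT0 (replicates 1 and 2). At ZT12 it had 5.10 and 3.46, 3.62 and 5.15, 2.02 and 1.5, and 1.13 and 4.40 CPM in these conditions. Every ZT0 library lay above every ZT12 library. Here and below, overlap of groups describes the named genes and is no further test, and its share over all genes was not counted. The log2 fold change of Arntl was 2.80 ± 0.34 (SE, n = 8 per time in the fit, edgeR adjusted p = 0.00156). Its contrast rests on the 4 later ZT12 libraries. The value within the later run was also 2.80 (adjusted p = 0.00293).

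Npas2, a partner of BMAL1 that can stand in for CLOCK, had 1.85, 5.83 and 13.1 CPM (lowest, median and highest) at ZT0 and 0, 0.228 and 1.31 CPM at ZT12. The groups did not overlap, with a log2 fold change of 4.79 ± 0.63 (edgeR adjusted p = 0.003). Its size depends on very low values, since the ZT12 α libraries held at most 0.0943 CPM. With limma-voom and a correlation between cell types the fold change was 4.29 and the call was lost (adjusted p = 0.0713).

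Of the members that did not pass, Clock itself, the usual partner of BMAL1, had 88.4, 108 and 159 CPM at ZT0 and 55.0, 90.3 and 125 CPM at ZT12, a log2 difference of 0.20 ± 0.08 (edgeR adjusted p = 0.302). Clock passed with no run term (0.38, edgeR adjusted p = 0.0482) and with replicate number as a term in place of the run (0.40, 0.023). The receptor Rora stood at -0.55 ± 0.15 (adjusted p = 0.12), and it passed by DESeq2 (0.0194) and with all 48 libraries (0.00535). Arntl2, a paralogue of Arntl, and the receptor Rorb were low throughout, with medians of 0.318 and 0.105 CPM at ZT0 and 0.452 and 0.318 CPM at ZT12.

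The repressors of the Period and Cryptochrome families were split. Of 6 tested, Per3 and Cry2 were lower at ZT0 and Cry1 was higher, with a median of -0.86. Per3 (ENSMUSG00000028957.12) had 3.88 and 1.42 CPM in DOX β cells, 5.57 and 10.6 in CTR β cells, 8.10 and 9.38 in DOX α cells and 7.93 and 5.62 in CTR α cells at ZT0. At ZT12 it had 17.6 and 17.7, 30.0 and 27.7, 30.2 and 40.6, and 36.1 and 29.3 CPM in these conditions. Its groups did not overlap, and the log2 fold change of -2.19 ± 0.24 (edgeR adjusted p = 0.000776) was -2.23 in the later run (adjusted p = 0.00431).

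Cry2 had 71.3, 103 and 114 CPM at ZT0 and 134, 183 and 248 CPM at ZT12, again without overlap (-0.98 ± 0.09, edgeR adjusted p = 0.000226). Cry1, its paralogue, differed the other way, with 24.0, 40.1 and 60.3 CPM at ZT0 and 8.91, 12.0 and 17.3 CPM at ZT12 (1.83 ± 0.29, edgeR adjusted p = 0.0131). The call of Cry1 was lost without ZT12 DOX β, DOX α or CTR α replicate 2 (1.71 to 1.74, adjusted p = 0.073 to 0.0825).

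Per1 and Per2, the other Period genes, did not pass. Per1 had 23.4, 44.1 and 78.9 CPM at ZT0 and 44.0, 99.6 and 157 CPM at ZT12 (-0.77 ± 0.27, edgeR adjusted p = 0.235), with overlapping groups. It passed with all 48 libraries (-0.95, adjusted p = 0.00227) and with no run term (-1.04, 0.035). Per2 had 17.1, 36.9 and 65.5 CPM at ZT0 and 19.0, 31.1 and 52.2 CPM at ZT12, a difference of 0.12 ± 0.37 (adjusted p = 0.922). Over the 6 sampled times of the later run Per2 still spanned 1.80 on the log2 scale, highest at ZT16 and lowest at ZT4. Ciart, a further repressor of the dimer, had a median of 1.83 CPM at ZT0 and 4.81 CPM at ZT12 (-0.94 ± 0.69, adjusted p = 0.568).

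Among the REV-ERB and DEC repressors, 1 of 4 was lower at ZT0 and 0 were higher, with a median of -0.92. Nr1d2, which encodes REV-ERBβ, had 16.9, 36.0 and 64.3 CPM at ZT0 and 147, 178 and 234 CPM at ZT12. The groups were far apart, at -2.29 ± 0.25 (edgeR adjusted p = 0.000776) and -2.32 in the later run. Nr1d1, which encodes REV-ERBα, had -1.33 ± 0.41 (adjusted p = 0.171; 0.0324 with all 48 libraries and 0.0348 with no run term) over both cell types, and its values in each are given below. The DEC genes Bhlhe40 and Bhlhe41, repressors that bind E-boxes, had -0.46 ± 0.19 and -0.51 ± 0.15 (adjusted p = 0.31 and 0.147), and Bhlhe41 passed by DESeq2 (0.0408) and with all 48 libraries (0.00723).

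The PAR bZIP factors and their antagonist differed in opposite directions. In this list 1 of 4 genes was higher at ZT0, 2 were lower and the median was -1.17. Dbp (ENSMUSG00000059824.12) had 14.5 and 16.8 CPM in DOX β cells, 44.4 and 25.5 in CTR β cells, 13.5 and 9.68 in DOX α cells and 9.32 and 13.2 in CTR α cells at ZT0. At ZT12 it had 83.8 and 48.7, 139 and 79.4, 102 and 95.7, and 97.0 and 68.8 CPM in these conditions. No ZT0 library reached a ZT12 library, and the log2 fold change was -2.14 ± 0.24 (edgeR adjusted p = 0.000776; -2.19 in the later run, adjusted p = 0.00831).

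Tef had 26.6, 41.1 and 59.1 CPM at ZT0 and 99.1, 128 and 193 CPM at ZT12 (-1.61 ± 0.14, edgeR adjusted p = 0.000226), also without overlap. Hlf, the third factor, had -0.73 ± 0.18 (adjusted p = 0.102), and it passed by DESeq2 (0.0116), with all 48 libraries (0.0373), with no run term (0.0078) and with no filter on low counts (0.0292). The repressor Nfil3 had 34.1 and 52.5 CPM in DOX β cells, 51.2 and 29.9 in CTR β cells, 32.7 and 34.6 in DOX α cells and 29.4 and 27.7 in CTR α cells at ZT0. At ZT12 it had 17.0 and 10.1, 5.77 and 8.99, 4.26 and 4.84, and 3.32 and 6.76 CPM. It was higher at ZT0 in every library, by 2.29 ± 0.27 (edgeR adjusted p = 0.0015) and by 2.26 in the later run (adjusted p = 0.00121).

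**Figure D2:**
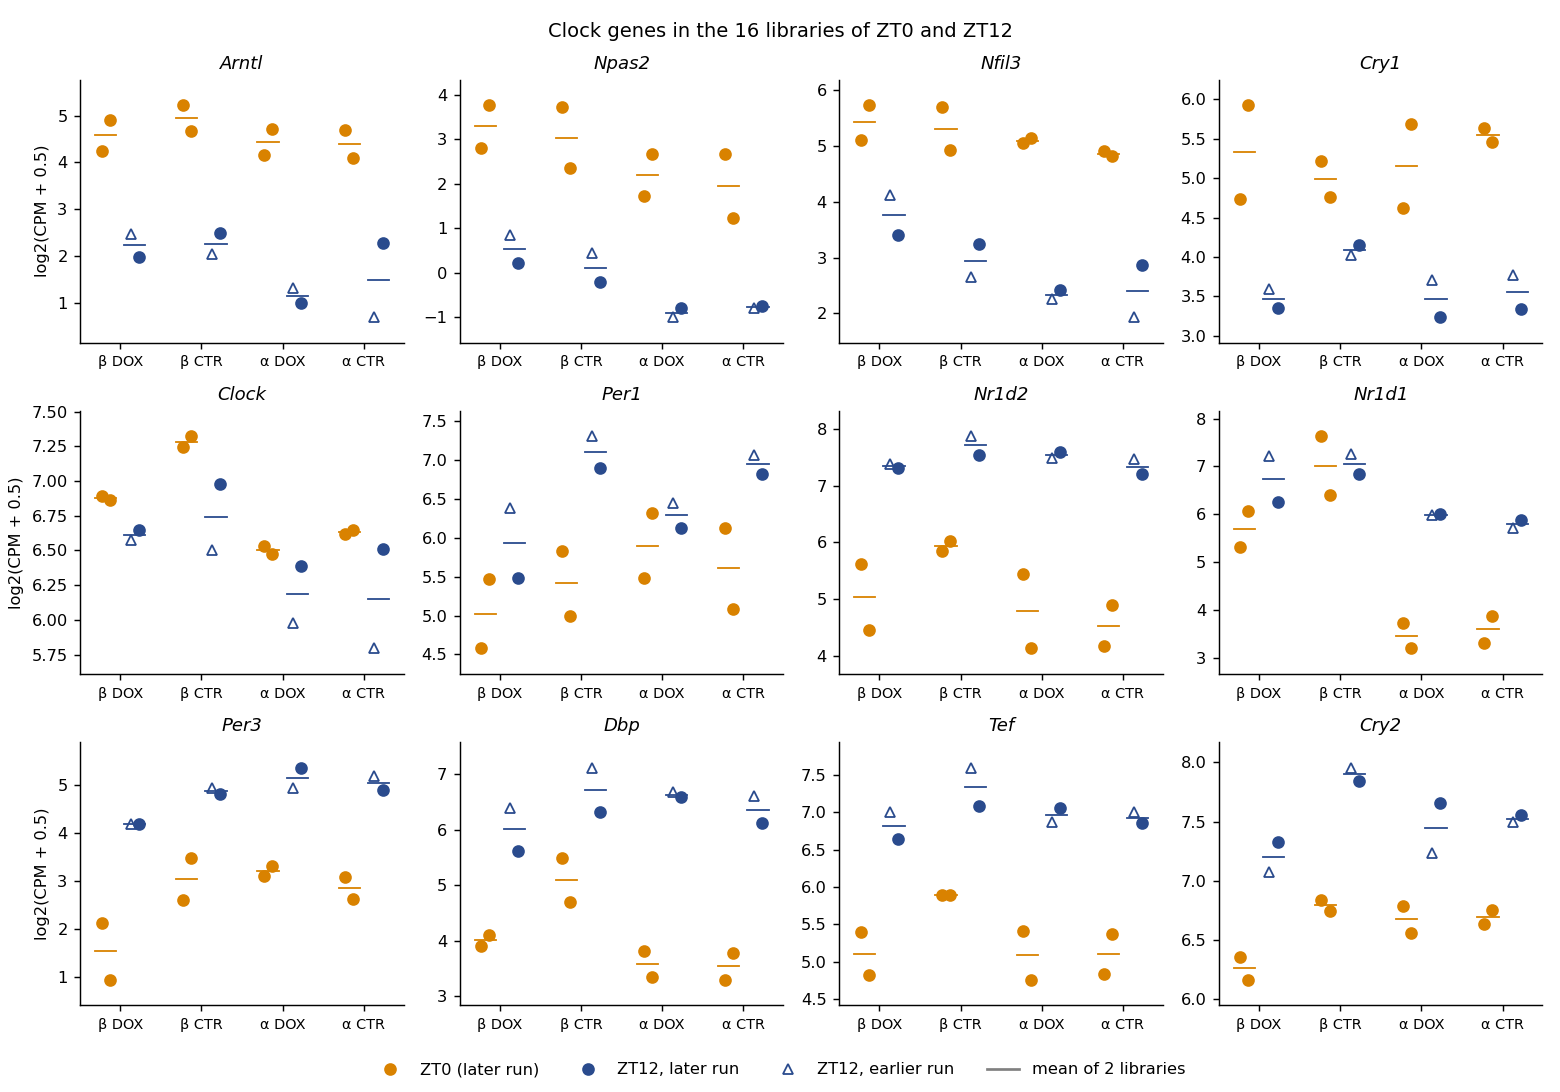
Level of 12 clock genes, as log2 of CPM plus 0.5, in every library of the 4 conditions, with ZT0 in orange left of ZT12 in blue, open triangles for the earlier run and a bar at the mean of 2 libraries. Arntl, Npas2, Nfil3 and Cry1 lie higher in the ZT0 libraries, Nr1d2, Per3, Dbp, Tef and Cry2 lie lower, and Nr1d1 is apart in α cells and overlaps in β cells.

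The daily course in the later run shows where ZT0 and ZT12 fall for these genes. Of the 30 genes called higher at ZT0, 24 had their highest mean of 6 sampled times at ZT0 and 24 their lowest at ZT12. Of the 68 called lower, 62 were highest at ZT12 and 52 were lowest at ZT0. These genes were chosen on ZT0 and ZT12 values, so the counts describe them and test nothing. Arntl went through 4.56, 3.64, 3.05, 1.74, 2.82 and 3.97 log2 CPM at ZT0, ZT4, ZT8, ZT12, ZT16 and ZT20, and Dbp through 4.01, 4.47, 5.52, 6.15, 4.49 and 4.11. Per3 and Cry2 were lowest at ZT4 and highest at ZT12. Cry1 was highest at ZT20 and lowest at ZT12. For Nr1d1, highest at ZT8 and lowest at ZT20, the gap between ZT0 and ZT12 made up 71.5% of its range over the 6 times, and for Per2 it made up 2.97%.

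**Figure D3:**
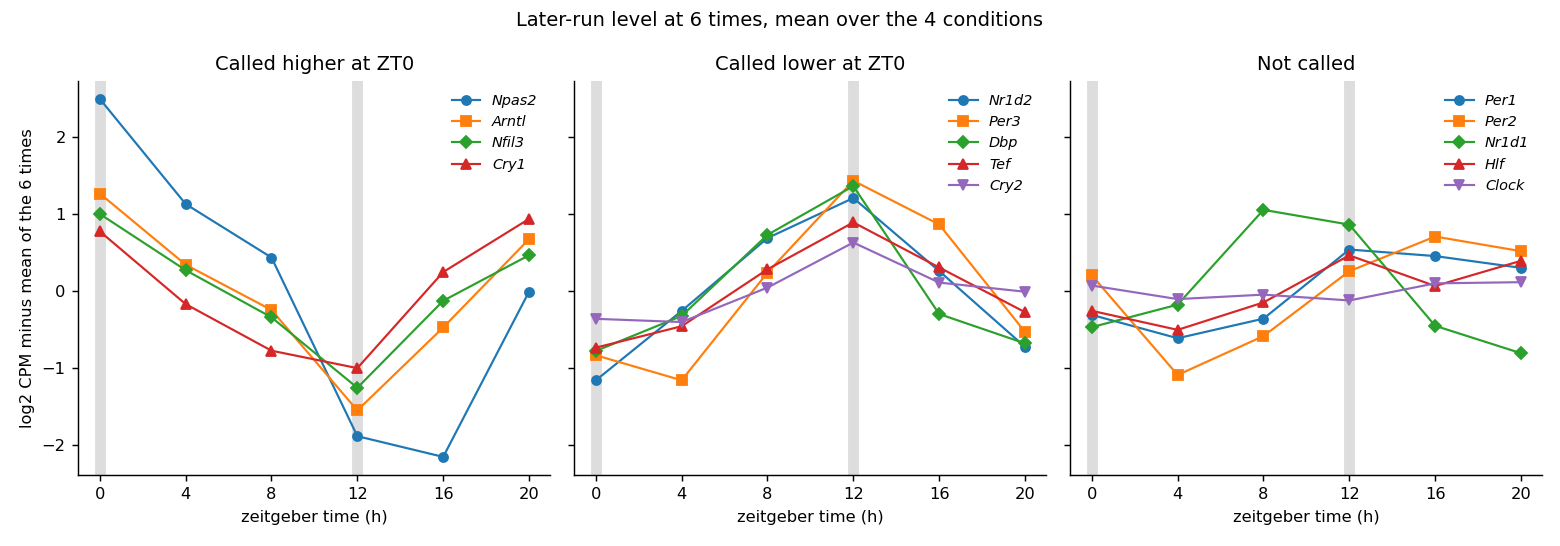
Mean later-run level of 14 clock genes over the 4 conditions at 6 zeitgeber times, as log2 CPM minus the mean of the 6 times, with grey bars at ZT0 and ZT12. Genes called higher at ZT0 are near their peak there, genes called lower peak at ZT12, and Per2 has almost the same level at both times although it spans 1.80 over the day.

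Outside the clock lists, 3 genes of the core of 18 were higher at ZT0. Ppp1r3c, which directs a protein phosphatase to glycogen, had 5.88, 10.4 and 17.6 CPM at ZT0 and 0.904, 2.14 and 6.37 CPM at ZT12 (1.97 ± 0.22, edgeR adjusted p = 0.000776). Fam84a had 3.06, 20.8 and 47.8 CPM at ZT0 and 0.689, 5.35 and 15.3 CPM at ZT12 (1.71 ± 0.19, adjusted p = 0.000776). For both, the ranges overlap over all cells, while within β and within α cells the ZT0 and ZT12 libraries did not. Lpl, lipoprotein lipase, which frees fatty acids from circulating fat, had 430, 515, 632 and 544 CPM in α cells at ZT0 and 280, 170, 206 and 284 CPM at ZT12. In β cells its level was lower and its groups overlapped, and over both cell types the log2 fold change was 1.38 ± 0.19 (adjusted p = 0.00466).

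The core also held 7 genes outside the 4 clock lists that were lower at ZT0. Pim3, a kinase that promotes cell survival, had 22.1, 28.9 and 48.2 CPM at ZT0 and 54.4, 71.9 and 109 CPM at ZT12 (-1.30 ± 0.13, edgeR adjusted p = 0.000719), with no overlap. Arl4d, a small GTPase of the ARF family, had -1.25 ± 0.17 (adjusted p = 0.00352). Sox4, a transcription factor used in islet development, had 14.0, 23.5 and 45.0 CPM at ZT0 and 38.8, 57.1 and 98.4 CPM at ZT12 (-1.15 ± 0.17, adjusted p = 0.00622). Across both cell types the times overlapped for Arl4d and Sox4, and within each cell type they did not. Wee1, a kinase that holds back entry into mitosis and is a known target of the clock, had 7.88, 13.8 and 19.2 CPM at ZT0 and 14.8, 24.3 and 40.4 CPM at ZT12 (-0.76 ± 0.10, adjusted p = 0.003). Cnn3, an actin-binding calponin, and Cnot8, a deadenylase of the CCR4-NOT complex, had -0.75 ± 0.11 and -0.66 ± 0.10 (adjusted p = 0.00622 and 0.00632). These last 2 were named after their values were seen.

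Among genes that respond to glucocorticoids, adrenal hormones that in mice are known to peak near the start of the dark phase, the calls went one way. Of 15 members tested, 5 were lower at ZT0 and 0 were higher, with a median of -0.77, and 13 had an unadjusted p under 0.05 (13.9% of all genes did). The list was chosen with earlier results of these data known, so these counts describe its members and do not test it. Whether the hormones have a part in these differences was not tested. Fkbp5, a co-chaperone of the glucocorticoid receptor, had 37.2, 81.8 and 120 CPM at ZT0 and 97.7, 172 and 253 CPM at ZT12 (-0.93 ± 0.12, edgeR adjusted p = 0.00184; -0.95 in the later run, adjusted p = 0.00831). Of this list, Fkbp5 was in the core of 18 and the other 4 called members were not.

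Those 4 were Tsc22d3, the glucocorticoid-induced leucine zipper (-0.86 ± 0.15, edgeR adjusted p = 0.0268), Ddit4, an inhibitor of mTORC1 (-0.90 ± 0.17, 0.0294), and the transcription factors Cebpd (-1.14 ± 0.22, 0.0355) and Klf9 (-0.93 ± 0.18, 0.0355). Tsc22d3 had 9.84, 14.8 and 22.7 CPM at ZT0 and 18.7, 28.9 and 42.0 CPM at ZT12, and Cebpd had 2.74, 4.93 and 6.21 CPM at ZT0 and 5.72, 11.2 and 14.7 CPM at ZT12. In each cell type the ZT0 libraries of these 4 genes lay below the ZT12 libraries, which restates values that the calls rest on. In the later run alone none of the 4 was called by edgeR (adjusted p = 0.0633, 0.0729, 0.0675 and 0.106 in the order given). Tsc22d3 lost its call without ZT0 CTR α replicate 1, either ZT0 CTR β library or any of the 4 later ZT12 libraries (adjusted p = 0.0507 to 0.158). Ddit4 lost it without ZT0 CTR β replicate 2, ZT0 DOX α replicate 2 or ZT12 DOX α or DOX β replicate 2 (0.0562 to 0.158). Cebpd stood only without ZT0 DOX α or DOX β replicate 1, or ZT12 DOX α, DOX β or CTR β replicate 1, and was lost without any 1 of the other 11 (0.0533 to 0.141). Klf9 stood only without either ZT0 DOX α library, ZT0 DOX β replicate 1 or either ZT12 DOX β library, and was lost without any 1 of the other 11 (0.0526 to 0.172).

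In the list of other clock outputs, 1 of 28 genes tested was higher at ZT0 and 3 were lower, with a median of -0.14. The lower ones were Wee1, Tsc22d3 and Klf9, of which the last 2 are also counted as glucocorticoid-responsive. Leo1, a subunit of the PAF1 elongation complex, had 25.9, 32.8 and 34.9 CPM at ZT0 and 12.5, 16.8 and 21.6 CPM at ZT12, with no overlap (0.76 ± 0.11, edgeR adjusted p = 0.00475). Its call was lost without ZT12 DOX α replicate 2 (0.68, adjusted p = 0.0545).

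Among 25 genes of fasting and fat oxidation, 1 was lower at ZT0 and 0 were higher, with a median of -0.28. Cpt1a, which brings fatty acids into mitochondria, had 23.9, 37.3 and 47.0 CPM at ZT0 and 59.6, 66.0 and 84.5 CPM at ZT12, without overlap (-0.96 ± 0.16, edgeR adjusted p = 0.0159). The call was lost without ZT12 CTR α or DOX α replicate 2 (-0.89 and -0.85, adjusted p = 0.0779 to 0.119). Foxo3, a transcription factor held back by insulin, and the mitochondrial carrier Ucp2 had -0.60 ± 0.15 and -0.44 ± 0.13 (adjusted p = 0.0924 and 0.163), and both passed by DESeq2 (0.0105 and 0.043) and with all 48 libraries (0.00176 and 0.00562). Of 13 D cyclins, CDKs and CDK inhibitors, Cdkn2c, an inhibitor of CDK4 and CDK6, was lower (-0.75 ± 0.15, edgeR adjusted p = 0.0447). Its call stood only without ZT0 DOX β replicate 1, ZT0 CTR α replicate 2 or ZT12 DOX β replicate 2, and was lost without any 1 of the other 13 libraries (adjusted p = 0.0522 to 0.235), in the later run alone (0.0846), with upper-quartile scaling (0.0586) and by limma-voom (0.0983).

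**Figure D4:**
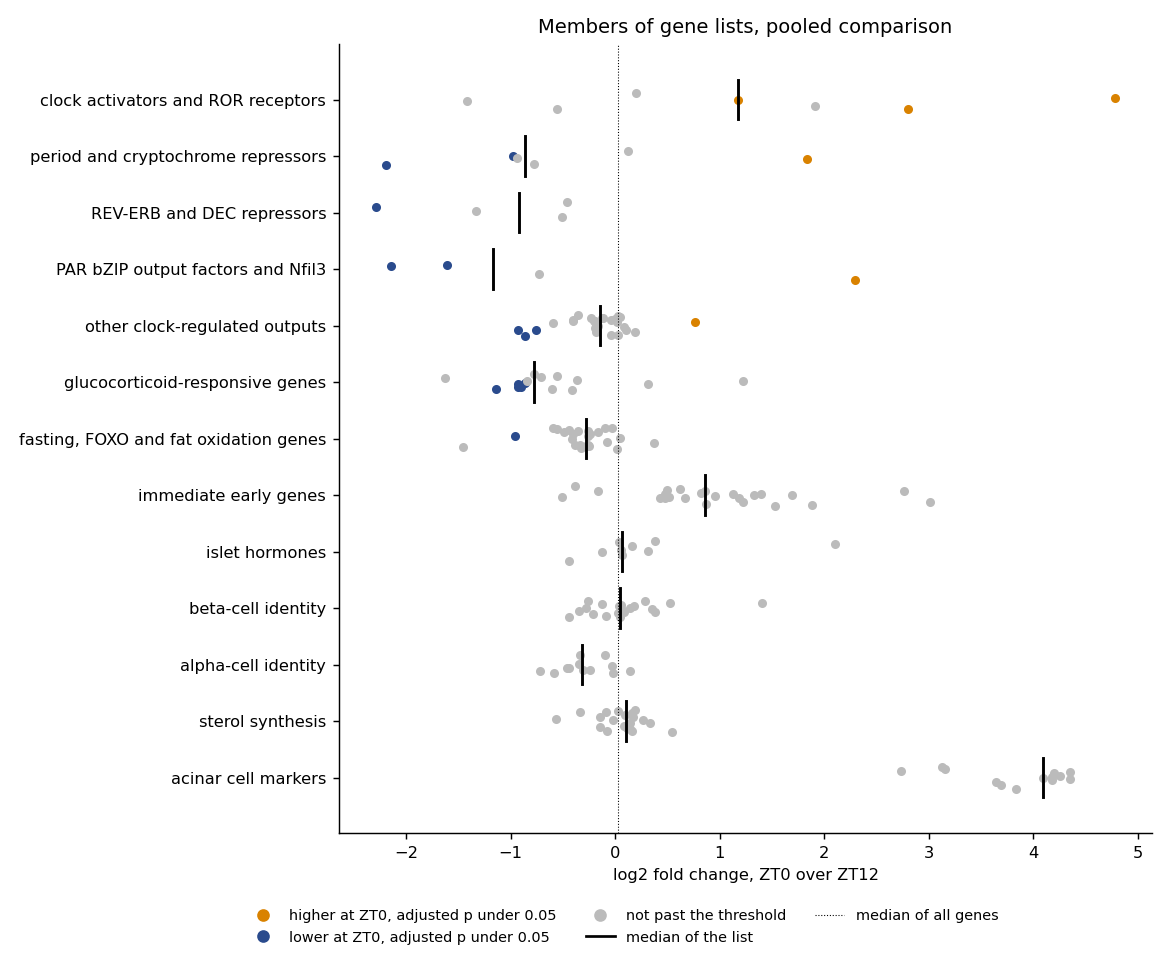
Log2 fold change (ZT0 over ZT12, horizontal axis) of each tested member of 13 gene lists in the pooled comparison, with orange points higher and blue points lower at an adjusted p under 0.05, grey points not past it, a black bar at the list's median and a dotted line at the median of all genes. Called members stand in the 4 clock lists, the other clock outputs, the glucocorticoid list and the fasting list, while the acinar markers lie between 2 and 5 with none called.

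Other lists held no called gene in the main edgeR fit, where 13.9% of all genes had an unadjusted p under 0.05. Immediate early genes, which answer acute stimuli, had a median of 0.86, with 21 of 24 above 0, 7 at an unadjusted p under 0.05, and 0 called by DESeq2 or limma-voom. Among them Nr4a2, an orphan nuclear receptor, had 0.95 ± 0.36 (edgeR adjusted p = 0.263) and overlapping groups. Crem was at 0.48, and Ier3, with a lower p than Nr4a2, went the other way at -0.51. Heat shock genes had a median of 0.09 (20 genes, 4 unadjusted, 1 by DESeq2) and cold-inducible RNA-binding proteins 0.07 (6 genes, 1 unadjusted, 0 by DESeq2). Genes of G2/M had a median of -0.46 (20 genes, 4 unadjusted, 0 by DESeq2), and those of the S phase 0.00 (20 genes, 0 unadjusted, 0 by DESeq2).

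In β cells taken alone 1 gene passed in the main fit and it was not a clock gene. Of 16378 genes 1 was called (0.00611%, edgeR, n = 4 per time with the earlier ZT12 libraries counted). At an unadjusted p under 0.05 there were 1143 (6.98%), and DESeq2 called 181. Of the 21 clock genes 0 were called in the main edgeR fit and 0 in the later run alone, and 11 had an unadjusted p under 0.05 in the main fit. DESeq2 called 10, and the edgeR fit of all 48 libraries called 10. With no run term edgeR called each of the genes named next (adjusted p = 0.0147 to 0.0463), whose values here are of the main fit. Arntl had 2.68 ± 0.32 (adjusted p = 0.0673), Tef -1.37 ± 0.16 (0.0673), Cry2 -1.06 ± 0.13 (0.0673), Npas2 4.21 ± 0.57 (0.101), Nr1d2 -1.92 ± 0.28 (0.117), Dbp -1.41 ± 0.21 (0.129), Per3 -2.26 ± 0.40 (0.267) and Nfil3 2.14 ± 0.39 (0.269).

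The gene called in β cells was Celsr1, a cadherin of planar cell polarity, named after its values were seen. It had 12.3, 12.7, 12.9 and 19.9 CPM in the ZT0 β libraries and 6.72, 0.947, 13.9 and 1.56 CPM in the ZT12 β libraries (DOX replicates 1 and 2, then CTR replicates 1 and 2). The 2 later ZT12 libraries were low, whereas the 2 of the earlier run were higher and 1 of them lay within the ZT0 values. The log2 fold change of 3.55 ± 0.29 (edgeR adjusted p = 0.0272) rests on the term for the run, and with no such term it was 1.40 (adjusted p = 0.469). The call was also lost with all 48 libraries (2.21, adjusted p = 0.095) and without ZT0 CTR β, ZT12 DOX β or ZT12 CTR β replicate 2 (3.48 to 3.61, adjusted p = 0.181 to 0.613).

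In α cells taken alone 6 genes were called, and 5 of them were clock genes. Of 16119 genes, 1 was higher at ZT0 (0.00620%) and 5 were lower (0.0310%), 6 in all (0.0372%, edgeR, n = 4 per time with the earlier ZT12 libraries counted). At an unadjusted p under 0.05 there were 1303 (8.08%), and DESeq2 called 221. Nfil3 was higher by 2.44 ± 0.21 (adjusted p = 0.0154). Dbp (-2.82 ± 0.17, 0.00519), Nr1d1 (-2.41 ± 0.19, 0.0119), Pim3 (-1.37 ± 0.11, 0.0119), Per3 (-2.14 ± 0.20, 0.0254) and Tef (-1.83 ± 0.19, 0.0411) were lower. None of these 6 had overlapping groups in α cells, which describes genes called on the same values and is no further test. In the later run alone Dbp was called, and the edgeR adjusted p was 0.0548 for Nfil3, Nr1d1 and Per3, 0.0578 for Pim3 and 0.131 for Tef. Dbp lost its call without ZT12 CTR α or DOX α replicate 2 (-3.03 and -2.60, adjusted p = 0.0542 to 0.232). Nfil3, Nr1d1, Per3 and Pim3 lost theirs without ZT0 CTR α replicate 1 or any 1 of the 4 ZT12 α libraries, and Tef also without ZT0 CTR α replicate 2. Without these libraries the adjusted p was 0.0506 to 0.232 for Nfil3, 0.0506 to 0.416 for Nr1d1, 0.0506 to 1 for Per3, 0.0521 to 0.323 for Pim3 and 0.0544 to 1 for Tef.

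The difference between the cell types was tested in 1 model. A difference of the change, β minus α, was called for 0 of 17464 genes (0%; edgeR, 602 at an unadjusted p under 0.05, 3.45%; 12 by DESeq2 and 1 by limma-voom), so no gene below is shown to differ by the main test. Among clock genes Nr1d1 had the largest positive difference. It had 39.3, 66.4, 197 and 84.5 CPM in β cells at ZT0 (DOX replicates 1 and 2, then CTR) and 149, 76.4, 152 and 115 CPM at ZT12, so its β groups overlapped (-0.10 ± 0.40). In α cells it had 12.7, 8.66, 9.47 and 14.1 CPM at ZT0 and 62.7, 63.6, 51.8 and 58.2 CPM at ZT12. The difference of the log2 changes was 2.30 ± 0.48 (unadjusted p = 0.000792, edgeR adjusted p = 1; DESeq2 adjusted p = 0.00271). The difference for Dbp was 1.40 ± 0.32 (unadjusted p = 0.00154, adjusted p = 1), with -1.41 in β cells and -2.82 in α cells.

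**Figure D5:**
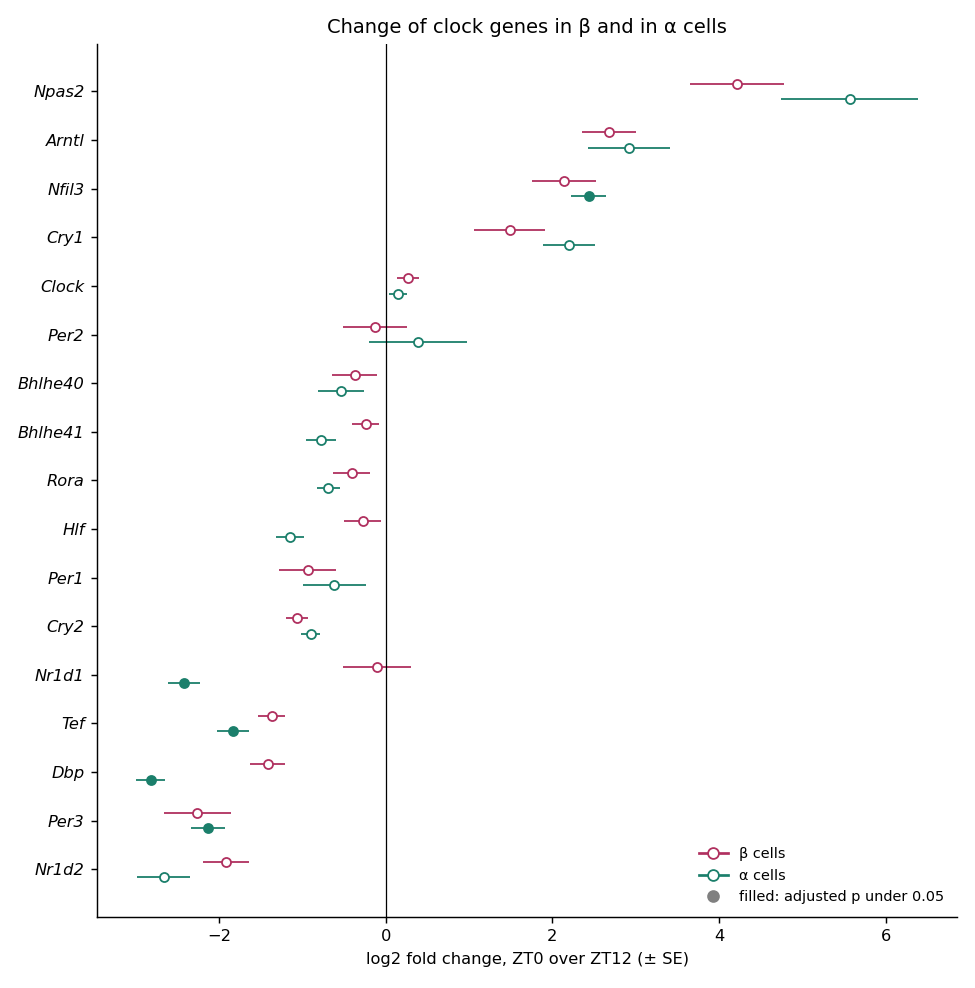
Log2 fold change (ZT0 over ZT12, with its SE) of 17 clock genes in β cells above and in α cells below each line, filled where the adjusted p was under 0.05. The filled points are Nfil3, Nr1d1, Tef, Dbp and Per3 in α cells, and the cell types stand furthest from each other, against their SE, for Nr1d1 and Dbp.

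Several genes outside the clock had the lowest p in the test of this difference. Serpina7, which encodes the thyroxine-binding globulin, had 59.2, 52.2, 7.26 and 10.8 CPM in β cells at ZT0 and 48.3, 200 (DOX replicate 2), 12.7 and 28.4 CPM at ZT12 (DOX replicates 1 and 2, then CTR). In α cells it had 41.6, 40.6, 25.1 and 35.5 CPM at ZT0 and 16.6, 18.9, 15.3 and 18.4 CPM at ZT12. The groups overlapped in β cells (-1.76 ± 0.21) and not in α cells (0.94 ± 0.17). The difference was -2.71 ± 0.31 (unadjusted p = 6.23e-06, edgeR adjusted p = 0.109), and it passed with all 48 libraries, by DESeq2, by limma-voom and with no filter on low counts (adjusted p = 0.0131, 5.14e-12, 0.00731 and 3.99e-05). It did not pass with no run term or with replicate number as a term. Without 1 library it lay between -3.15 and -2.19. The β change rests on the later ZT12 libraries (200 and 28.4 CPM), while the earlier ones (48.3 and 12.7 CPM) lay nearer the ZT0 values of their treatment.

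Rgs2, which shortens G-protein signals, had 33.7, 13.5, 20.1 and 20.9 CPM in β cells at ZT0 and 141, 284, 250 and 233 CPM at ZT12. In α cells it had 60.8, 33.6, 31.6 and 38.0 CPM at ZT0 and 124, 68.5, 105 and 97.5 CPM at ZT12. The times did not overlap in either cell type, with -3.56 ± 0.35 in β cells (edgeR adjusted p = 0.0578) and -1.02 ± 0.26 in α cells (0.405). The difference of -2.57 ± 0.53 had an unadjusted p of 0.000774 (edgeR adjusted p = 1; 0.0138 with all 48 libraries and 0.00155 by DESeq2). Over both cell types Rgs2 was lower at ZT0, at -2.39 ± 0.43 (adjusted p = 0.0268). That call was lost in the later run (0.0508), with limma-voom (0.0509), and without ZT0 CTR α replicate 1, either ZT0 CTR β library or ZT12 DOX β, CTR β or CTR α replicate 2 (0.0507 to 0.158).

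Mum1l1 had 37.7, 35.3, 20.6 and 24.9 CPM in β cells at ZT0 and 83.4, 136, 51.1 and 48 CPM at ZT12, with -1.52 ± 0.18 in β cells and -0.05 ± 0.15 in α cells (difference -1.45 ± 0.25, unadjusted p = 0.000166). The ETS factor Etv5, the Notch ligand Jag2 and the surface glycoprotein Cd200 had differences of -1.36 ± 0.26, -2.0 ± 0.40 and -0.81 ± 0.15 (unadjusted p = 0.000495, 0.000558 and 0.000358). DESeq2 called the difference for Mum1l1, Etv5, Jag2 and Cd200 (adjusted p = 0.000328, 0.00848, 0.00188 and 0.000842), and the fit of all 48 libraries did for Mum1l1 (0.0176) and Jag2 (0.0138). Etv5, Jag2 and Cd200 had log2 fold changes of -0.37, -0.66 and -0.65 in β cells and 1.0, 1.32 and 0.17 in α cells. Neither they nor Mum1l1 were called in either cell type alone.

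Genes of sterol synthesis, which make cholesterol from acetyl-CoA, had medians of opposite sign in the 2 cell types. In β cells the median of 20 genes was -0.28 with 2 above 0, and in α cells it was 0.34 with 20 above 0. The median difference was -0.75, with 2 above 0 and 9 of 20 at an unadjusted p under 0.05. No member was called in any of the 3 comparisons in the main edgeR fit. DESeq2 called 0, 1 and 0, and the fit of all 48 libraries 1, 2 and 1. Insig1, a brake on the pathway, had 175, 72.9, 121 and 162 CPM in β cells at ZT0 and 183, 384, 181 and 205 CPM at ZT12 (-1.13 ± 0.35), against 0.01 in α cells. Its highest value, like that of the synthase Hmgcs1 in β cells (144 CPM), was in ZT12 DOX β replicate 2, 1 of the 2 later ZT12 β libraries. Without that library the difference, β minus α, was -0.60 for Insig1 and -0.33 for Hmgcs1, against -1.11 and -0.78 with it.

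The change between lights on and lights off was also compared between DOX and CTR cells. A difference, DOX minus CTR, was called for 0 of 17464 genes in β cells (0%; edgeR, 705 at an unadjusted p under 0.05, 4.04%; 3 by DESeq2) and for 0 in α cells (0%; 315 unadjusted, 1.80%; 2 by DESeq2). Of the 21 clock genes 0 had an unadjusted p under 0.05 in either, and edgeR and DESeq2 called 0. The lowest adjusted p over all genes was 0.365 in β cells and 0.775 in α cells. In β cells the differences of the clock genes ran from -1.11 for Nr1d1 to 1.10 for Cry1. In α cells they ran from -0.63 for Ciart to 2.59 for Rorb, whose highest ZT12 value was 0.576 CPM. With 1 later ZT12 library per condition this test rests on few values, and it does not show that the changes are alike.

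The hormone genes were not called. Glucagon (Gcg) took 25.5, 26.8 and 31.2% of the counts of α cells (lowest, median and highest of 4) at ZT0 and 25.8, 29.5 and 33.5% at ZT12. Insulin 2 (Ins2) took 17.5, 18.9 and 23.6% of those of β cells at ZT0 and 17.8, 20 and 23.0% at ZT12. Over both cell types the log2 fold changes were -0.44 ± 0.34 for Gcg, 0.06 ± 0.37 for Ins1, -0.12 ± 0.37 for Ins2, 0.31 ± 0.21 for Sst and 0.04 ± 0.31 for Ppy (edgeR adjusted p = 0.591, 0.963, 0.916, 0.543 and 0.971). These values also take in the cell type where the hormone is low, with at most 253 CPM of Gcg in β cells and 876 CPM of Ins2 in α cells. Reads of the similar insulin genes may have been split between them. Of 9 hormone genes 1 had an unadjusted p under 0.05 (13.9% of all genes did) and DESeq2 called 0. The β-cell identity list had a median of 0.05 over both cell types (20 genes, 4 unadjusted, 0 by DESeq2) and the α-cell identity list -0.32 (12 genes, 1 unadjusted, 1 by DESeq2). Within their own cell type the medians were 0.06 for the β-cell list and -0.22 for the α-cell list.

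No marker of another cell type was called in the main edgeR fit, where 13.9% of all genes had an unadjusted p under 0.05. The 13 acinar markers tested all had a log2 fold change above 0, with a median of 4.09 (10 at an unadjusted p under 0.05; 2 by DESeq2). Their sum was not higher in every ZT0 library, with 13.9 CPM in ZT0 DOX α replicate 2, against 28.0 and 184 CPM in the ZT12 DOX α libraries. Endothelial and stellate markers had medians of 1.67 and 1.07 (5 and 8 genes, 1 and 2 unadjusted, 0 and 1 by DESeq2), and the endothelial sums had medians of 12.6 CPM at ZT0 and 12.3 CPM at ZT12. In β cells alone all 8 stellate markers were above 0, with a median of 2.84 (4 unadjusted, 4 by DESeq2). Their sums in β cells overlapped, at 1.18 to 26.2 CPM at ZT0 and 0.326 to 32.0 CPM at ZT12. Macrophage markers had a median of -0.46 (15 genes, 0 unadjusted, 0 by DESeq2) and summed to 42.7, 75.4 and 662 CPM at ZT0 and 55.7, 119 and 1420 CPM at ZT12. Ductal markers had a median of 0.0056 (7 genes, 1 unadjusted, 0 by DESeq2, 2 with all 48 libraries). In α cells the ductal sums did not overlap, at 343 to 427 CPM at ZT0 and 467 to 607 CPM at ZT12. Markers of delta, PP and epsilon cells had a median of 0.31 (7 genes, 2 unadjusted, 1 by DESeq2, 1 with all 48 libraries). Without ZT0 DOX α replicate 1, which had the highest sum of acinar markers, 86 genes were called over both cell types, and without ZT0 DOX β replicate 1, which came next, 142 were.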

How the data were processed

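Each sorted α- or β-cell library used 300 ng of polyA RNA and the TruSeq v2 kit, with HiSeq sequencing, per the labels' protocols. The submitters' processing notes name bcl2fastq, STAR and GRCm38; the counting program and all versions are not given in the sources used here. The deposited values are estimated counts per gene (42713 genes), of which 49.4 to 66.4% of the nonzero values per library are whole (within 1e-06). Of whole values up to 20, 99.75 to 99.98% are even, so counts were also tested halved. The RPKM tables were not used here. The kit does not mark strand, so reads of overlapping genes cannot be told apart.

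Counts were rounded and fitted with edgeR 4.0.16 (R 4.3.3): TMM scaling, filterByExpr (minimum count 10, total 15), the quasi-likelihood F test and Benjamini-Hochberg adjustment at 0.05. The pooled model had the 4 conditions, the run and time, the models of β or α cells alone had treatment, run and time, and the differences came from 1 model of all 16 libraries with a time effect per condition and the run per cell type. Replicate differences of β and α libraries had correlations of 0.40, 0.28, 0.33 and 0.23. Limma-voom took β and α libraries of the same time, treatment and replicate number as correlated, at 0.21 in the pooled fit and 0.30 in the difference. Printed levels are TMM-scaled CPM over all 48 libraries, and log2 CPM used a prior count of 2. Alternatives were DESeq2 1.42.0, limma-voom (limma 3.58.1), other scalings, filters, run and replicate terms, all 48 libraries, the later run alone and each library left out.

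Genes named were the clock genes; up to 10 genes per direction with the largest change among those called in the main fit, in the later run alone and without each library, with a mean of at least 10 CPM at the higher time and 1 direction in the 4 conditions; the genes of lowest p in a list or in a difference between cell types or treatments; and the hormones. Genes under 1 CPM in every β library, and most genes of the treatment differences, are not described, and genes outside the rule are marked. Some genes that the rule names are not reported here. The members and lists were chosen with earlier results of these data known. On simulated data with the pooled design and 16937 genes, 34.3, 53.7 and 74.2% of 1.5-, 2- and 4-fold changes were recovered; for β alone (16378 genes) it was 1.49, 34.3 and 60.6%, for α alone (16119 genes) 2.99, 32.8 and 75.8%, and for β minus α (17464 genes) 0, 5.97 and 54.5%. Unchanged genes called there numbered 5, 10, 15 and 4 in the same order. Each simulation held 67, 67 and 66 genes changed 1.5-, 2- and 4-fold, no run effect and independent libraries. The number of unchanged genes called depends on the number changed, so 10 and 15 cannot be set against the 1 and 6 genes called in β and α cells.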

Additional observations from a re-analysis of the deposited data

Results flagged for a closer look

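Of 228 sets of 4 libraries (1 named gene at 1 time in 1 cell type), 11 held a library far from the other 3, and chance gives about 1 in 20. In ZT0 libraries, DOX α replicate 1 had 58.2 CPM of Rora (others 45.0 to 46.1), DOX β replicate 2 had 32.2 CPM of Cpt1a (42.4 to 44.8), DOX β replicate 1 had 1340 CPM of Sst (408 to 496), and CTR β replicate 2 had 19.9 CPM of Celsr1 (12.3 to 12.9) and 54.3 CPM of Jag2 (84.2 to 91.5). In ZT12 libraries of the earlier run, DOX α replicate 1 had 0 CPM of Npas2 (others 0.0754 to 0.0943) and 0 CPM of Rorb (0.377 to 0.576). In ZT12 libraries of the later run, CTR α replicate 2 had 68.8 CPM of Dbp (95.7 to 102), DOX α replicate 2 had 68.1 CPM of Pim3 (74.1 to 74.8), and DOX β replicate 2 had 384 CPM of Insig1 (181 to 205) and 144 CPM of Hmgcs1 (85.9 to 90.4).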

How the results depend on the processing

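The number of called genes over both cell types, in β cells and in α cells (98, 1 and 6) was 450, 30 and 32 with no run term, 64, 2 and 1 in the later run alone, 1130, 216 and 194 with all 48 libraries, 562, 181 and 221 by DESeq2, and 224, 27 and 57 with no filter on low counts. The splits into higher and lower were 189 and 261 with no run term, 472 and 658 with all 48 libraries and 223 and 339 by DESeq2. Leaving out 1 library gave 24 to 142, 0 to 3 and 0 to 14. For β minus α (0 called) it was 17 with all 48 libraries, 12 by DESeq2, 5 with no filter and 1 by limma-voom; for DOX minus CTR (0 called) DESeq2 gave 3 in β and 2 in α cells, and leaving out 1 library gave 0 in each difference. The cause of these shifts was not tested. With the replicate block in place of the run the counts were 604, 27 and 26, and with the replicate block and the run 56, 0 and 0. Differences between replicates correlated at -0.08, 0.13, -0.19 and 0.01 between ZT0 and ZT12, and at 0.23 to 0.40 between β and α cells. The ZT12 replicates also differ in run and the ZT0 replicates in the last title number, alike in both cell types. Shared animals cannot be told apart from these, so the correlations neither show nor exclude pairing. Limma-voom with the correlation of β and α libraries called 102 genes over both cell types. Of 35 called values of named genes, 23 passed and 12 did not in the later run alone, and likewise with the replicate block and the run; 35 passed by DESeq2 and with halved counts. Signs reversed only for values that were not called. Per2 was -0.055 by limma-voom and -0.17 to 0.27 without 1 library. Ins1 was -0.087 with no run term, -0.15 with all 48 libraries, -0.18 and -0.58 with the replicate block without and with the run, -0.20 by limma-voom and -0.20 to 0.21 without 1 library. Ins2 was -0.40 to 0.016 without 1 library. Ppy was -0.026, -0.060, -0.038, -0.16 and -0.071 in the same 5 settings and -0.18 to 0.23 without 1 library. Nr1d1 in β cells was 0.16 with all 48 libraries and -0.52 to 0.16 without 1 library. Depth was lowest in the earlier run, and genes near 0 CPM, such as Npas2 at ZT12, are limited by it.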
